A study of Mus musculus with 2 samples.

Results

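The genes described here are 40 nucleolar ribosome biogenesis genes, which encode proteins of ribosomal RNA synthesis, ribosomal RNA processing and pre-ribosome assembly. They were chosen by name and function, as every probe set (several short probes that together read 1 transcript) annotated to exactly 1 gene whose symbol was on the list. All 40 were found, with 84 probe sets, among 18193 genes with 34945 such probe sets. The study set RPE-exposed T cells against control T cells, where RPE is the retinal pigment epithelium, the pigmented layer behind the retina. Its title and design text concern the suppression of interleukin-17-producing helper T cells by RPE. RNA of each sample was labelled with biotin and read on 1 Affymetrix array. The RPE-exposed sample was titled as mouse T cells exposed to RPE, with primary cultured RPE in its tissue field. The control sample was titled as mouse CD4 T cells, with T cells in its tissue field. Both carried the labels male, 6 weeks of age and a C57 BL/6 background, and neither label named a transgene, a stimulus or a duration of exposure.

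With 1 array a group there was no spread between samples, so no difference could be tested and every value below describes these 2 arrays. The number of arrays limits the precision. As a description of error within the arrays, the log2 differences of several probe sets of 1 gene had a pooled SD of 0.20 over 26 of the member genes and 0.24 over all 4767 genes with several such probe sets. Probe sets of a gene are not replicates of cells. In such bulk RNA, fewer cells of a type and less RNA per cell cannot be told apart.

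Ribosome production begins in the nucleolus, where RNA polymerase I transcribes a long precursor of the ribosomal RNAs. Small nucleolar ribonucleoproteins (snoRNPs) modify that precursor, and large sets of assembly factors cut it and fold it with ribosomal proteins into the small and the large subunit. Resting T cells make few ribosomes, and activated T cells raise nucleolar gene expression before they grow and divide, with the transcription factor Myc among the known activators of these genes.

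Most of the 40 genes had a somewhat lower signal in RPE-exposed T cells. Each gene was represented by its brightest probe set, and its difference is the log2 signal of RPE-exposed minus control T cells. The median difference was -0.14 (quartiles -0.27 and 0.01), against -0.01 over all 11021 genes compared, which are the genes above a floor set at each array's median signal. Of the 40 genes, 29 had a negative difference (72.5%), and 51.6% of all genes compared did. The differences were small. Of the 40, 5 were lower by at least 0.32 on the log2 scale (12.5%), and so were 12.7% of all genes compared and 7.38% of the 6640 genes at least as bright as the dimmest member. No member was higher by that much, where 10.9% of all genes compared and 6.25% of the bright ones were. At 1.5-fold, 1 member was lower (3.84% of all genes compared, 1.66% of the bright ones) and none was higher (3.15% and 1.1%). No member reached 2-fold in either direction, where 0.626% of all genes compared were lower and 0.436% higher, and 0.271% of the bright ones were lower and 0.136% higher. The count of 5 is thus near the background of all genes compared, while the share with a negative difference lies above the backgrounds of 51.6% and, among the bright genes, 50%. The 40 signals ran from 88.1 to 5293.5 in RPE-exposed T cells, with a median of 468.1, against 87.4 to 4869.4 in control T cells, with a median of 552.2. The lean of these genes lay in many small differences and not in a few large ones.

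**Figure D1:**
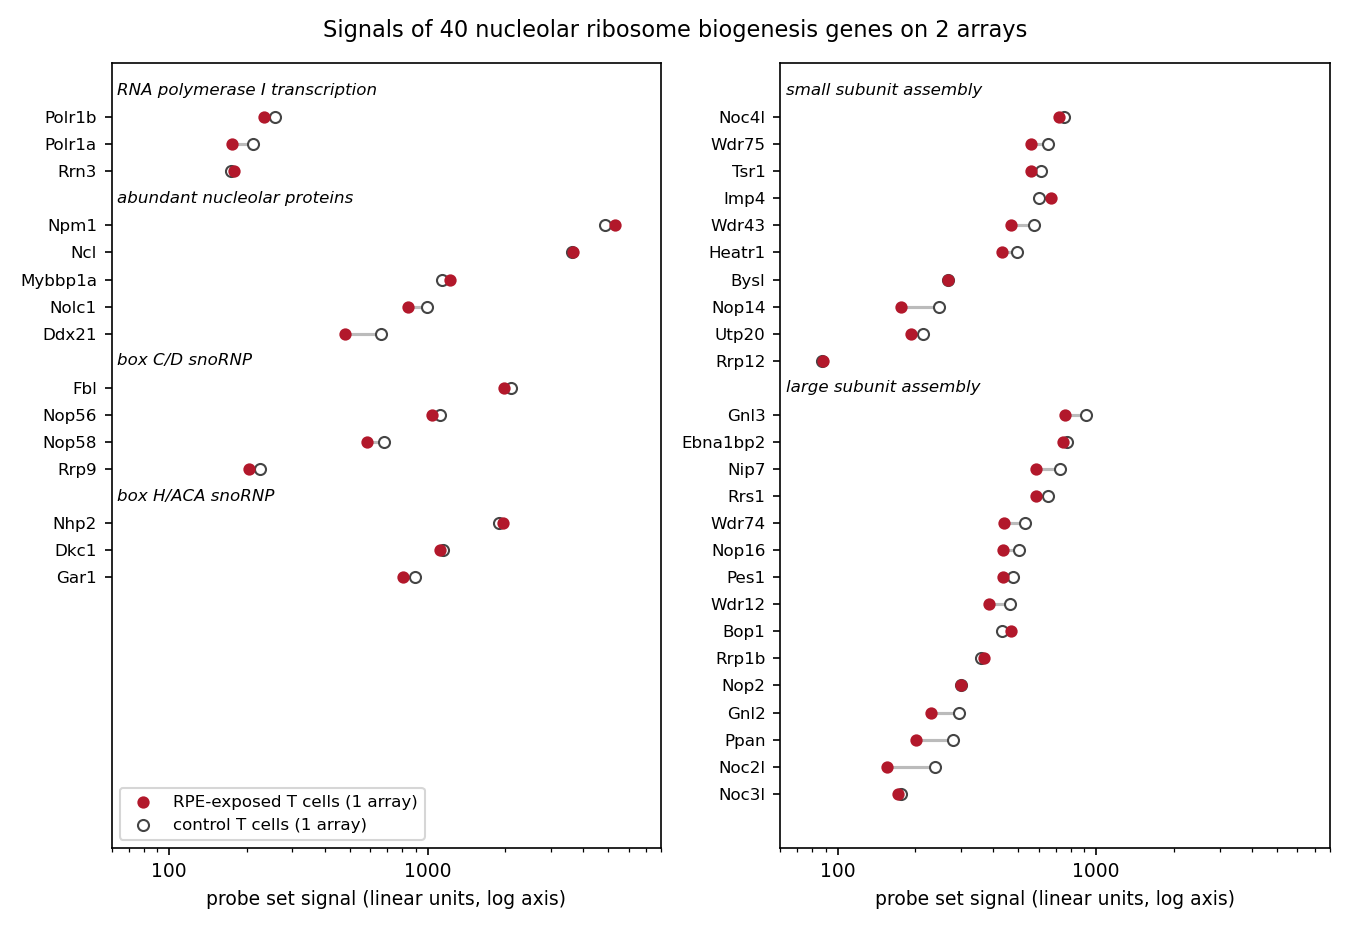
Signal of the brightest probe set of each of the 40 genes on a log axis, with genes grouped by role, filled points for the RPE-exposed array and open points for the control array (1 array each, no error bars). The filled point lies left of the open point for 29 of 40 genes, and the gap is widest for Noc2l, Nop14, Ppan and Ddx21.

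The machinery that starts ribosomal RNA synthesis was slightly lower or level. Polr1a, the largest subunit of RNA polymerase I, had a signal of 176.0 in RPE-exposed and 211.8 in control T cells (-0.27), and its 3 probe sets above the floor averaged -0.39 ± 0.10 (SD). The next-largest subunit gene, Polr1b, had 232.5 in RPE-exposed and 257.8 in control T cells (-0.15). Rrn3, the factor that brings the polymerase to the promoter and that growth signals control, was level at 178.7 in RPE-exposed and 173.9 in control T cells (0.04). Of the 13 other polymerase I genes measured (remaining subunits, shared subunits and factors), 9 were negative, against 51.6% of all genes compared. Their median was -0.07. It became 0.01 with each gene at the mean of all its probe sets, those under the floor set to it. The brightest of the 13 were Polr1d, at 1930.4 in RPE-exposed and 2023.8 in control T cells, and Polr2e, a subunit shared by all nuclear polymerases, at 696.0 in RPE-exposed and 731.3 in control T cells.

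The 5 genes of abundant nucleolar proteins had a median of 0.01, with 2 negative (51.6% of all genes compared were). Npm1, which encodes the histone chaperone nucleophosmin, gave 5293.5 in RPE-exposed and 4869.4 in control T cells (0.12), with both probe sets positive at 0.15 ± 0.04 (SD). Ncl, which encodes nucleolin, gave 3650.6 in RPE-exposed and 3625.5 in control T cells (0.01). Its 4 brightest probe sets lay between -0.09 and 0.08, and its dimmest probe set stood apart at 37.3 in RPE-exposed and 19.9 in control T cells (0.91). Mybbp1a, a Myb-binding protein of the nucleolus, gave 1224.5 in RPE-exposed and 1136.0 in control T cells (0.11), but its other probe set gave -0.10.

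A pair of genes of the same group had lower signals. Nolc1, whose product Nopp140 chaperones snoRNPs, gave 838.0 in RPE-exposed and 992.4 in control T cells (-0.24), and its 3 probe sets averaged -0.33 ± 0.18 (SD). Ddx21, a nucleolar RNA helicase, gave 480.5 in RPE-exposed and 660.4 in control T cells (-0.46), below the central 95% of genes of like brightness, which ran from -0.41 to 0.37. Its other probe set went the opposite way, at 484.8 in RPE-exposed and 422.7 in control T cells (0.20), so the direction of Ddx21 is uncertain on these arrays.

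All 4 genes of the box C/D snoRNPs, which guide methylation of ribosomal RNA, had negative differences, with a median of -0.12. Of all genes compared, 51.6% had negative differences. Fbl, the methyltransferase fibrillarin, had 1980.7 in RPE-exposed and 2107.5 in control T cells (-0.09). Its scaffold partners were Nop56, at 1037.7 in RPE-exposed and 1117.3 in control T cells (-0.11), and Nop58, at 582.8 in RPE-exposed and 676.8 in control T cells (-0.22). Rrp9, which binds the snoRNA that organises early small-subunit assembly, had 204.5 in RPE-exposed and 225.5 in control T cells (-0.14). The paired probe sets of Fbl (SD 0.02) and of Nop56 (SD 0.02) gave nearly the same difference.

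The box H/ACA snoRNP genes, whose complexes convert uridine to pseudouridine, were nearer to level, with a median of -0.04. Dkc1, the pseudouridine synthase dyskerin, gave 1118.3 in RPE-exposed and 1147.4 in control T cells, and its 3 probe sets averaged -0.04 ± 0.01 (SD). Gar1, a core protein of these particles, gave 806.5 in RPE-exposed and 896.2 in control T cells (-0.15), and Nhp2, another core protein, gave 1953.2 in RPE-exposed and 1889.3 in control T cells (0.05). Among 10 assembly factors of both snoRNP classes the median was -0.02, with 6 negative (51.6% of all genes compared were). It turned to 0.01 with each gene at the mean of all its probe sets, those under the floor set to it. Without the suffixed (x, s or a) probe sets it was 0.05. The helicase genes Ruvbl2 (0.12) and Ruvbl1 (0.05) were the brightest.

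Of the 10 small-subunit assembly genes, 7 had negative differences, against 51.6% of all genes compared, and the median of the 10 was -0.14. Nop14, a core protein of the small-subunit processome, was the lowest, at 176.0 in RPE-exposed and 247.7 in control T cells, 1.41-fold lower (-0.49, 1 probe set). The subcomplex that binds the nascent transcript first was lower in each of its 3 listed genes. Wdr43 had 468.8 in RPE-exposed and 572.9 in control T cells (2 probe sets at -0.28 ± 0.01, SD), Wdr75 had 561.8 in RPE-exposed and 652.4 in control T cells (-0.22), and Heatr1 had 434.0 in RPE-exposed and 495.7 in control T cells (-0.19). All 7 probe sets of these 3 genes above the floor were negative.

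The remaining small-subunit genes differed less. Utp20, a large processome protein, gave 192.0 in RPE-exposed and 214.0 in control T cells (-0.16). Tsr1, a late cytoplasmic-stage factor, gave 560.0 in RPE-exposed and 612.7 in control T cells (-0.13). Noc4l, whose yeast counterpart pairs with that of Nop14, gave 718.1 in RPE-exposed and 753.6 in control T cells (-0.07), with 4 probe sets all negative at -0.12 ± 0.03 (SD). Rrp12, the dimmest member, whose yeast counterpart takes part in subunit export, was level at 88.1 in RPE-exposed and 87.4 in control T cells, and so was Bysl, a late small-subunit factor, at 268.3 in RPE-exposed and 267.2 in control T cells. Imp4, a protein of early small-subunit particles that binds the U3 snoRNP, had the highest difference of all 40, at 667.9 in RPE-exposed and 601.8 in control T cells (0.15), but its 2 dimmer probe sets were negative and the average over 3 was -0.02.

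The large-subunit assembly genes showed the lowest median, -0.21 over 15 genes, with 12 negative (51.6% of all genes compared were). Noc2l, which in yeast pairs with Noc3 in large-subunit particles and whose product is known in human cells as an inhibitor of histone acetylation, had 155.2 in RPE-exposed and 237.5 in control T cells, 1.53-fold lower (-0.61). It lay below its like-level range of -0.53 to 0.54, but its other probe set was nearer to level at 110.7 in RPE-exposed and 123.8 in control T cells (-0.16). Its partner gene Noc3l was close to level at 171.1 in RPE-exposed and 176.3 in control T cells (-0.04).

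Next lowest were Ppan, whose yeast counterpart acts in early large-subunit assembly, at 201.6 in RPE-exposed and 279.9 in control T cells (-0.47, 1 probe set), and the GTPase gene Gnl2, at 230.1 in RPE-exposed and 296.1 in control T cells (-0.36). The 3 probe sets of Gnl2 were all negative at -0.42 ± 0.11 (SD). Gnl3, which encodes the related GTPase nucleostemin, had 758.9 in RPE-exposed and 915.5 in control T cells (-0.27). Nip7, a large-subunit maturation factor, had 584.5 in RPE-exposed and 721.7 in control T cells, with 2 probe sets at -0.29 ± 0.02 (SD), and Wdr74 had 441.9 in RPE-exposed and 531.4 in control T cells (-0.27). These 5 genes lay within their like-level ranges.

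The Pes1, Bop1 and Wdr12 proteins form 1 complex, and their transcripts did not differ alike. Wdr12 gave 386.3 in RPE-exposed and 465.7 in control T cells, with 2 probe sets at -0.30 ± 0.04 (SD). Pes1 gave 438.0 in RPE-exposed and 475.8 in control T cells (-0.12), and Bop1 gave 467.3 in RPE-exposed and 433.9 in control T cells (0.11). In both Pes1 (0.29) and Bop1 (-0.21) the dimmer probe set had the opposite sign. The dimmer probe set of Pes1 lay near the floor, at 22.2 in RPE-exposed and 18.1 in control T cells. So did the dimmer of the 2 Wdr12 probe sets, at 21.5 in RPE-exposed and 26.9 in control T cells.

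Of the other large-subunit genes, Nop16 had 436.3 in RPE-exposed and 503.7 in control T cells (-0.21). Rrs1, whose yeast counterpart helps to place a small ribosomal RNA in the large subunit, had 587.7 in RPE-exposed and 650.0 in control T cells (2 probe sets, -0.14 ± 0.01, SD). Ebna1bp2 was near level at 744.3 in RPE-exposed and 768.8 in control T cells (-0.05, with its other probe sets under the floor on 1 array or both), and the methyltransferase gene Nop2 was level at 301.0 in RPE-exposed and 299.0 in control T cells (0.01). Rrp1b was split, since its brightest probe set gave 369.3 in RPE-exposed and 357.3 in control T cells (0.05), while the other 2 gave -0.50 and -0.27.

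**Figure D2:**
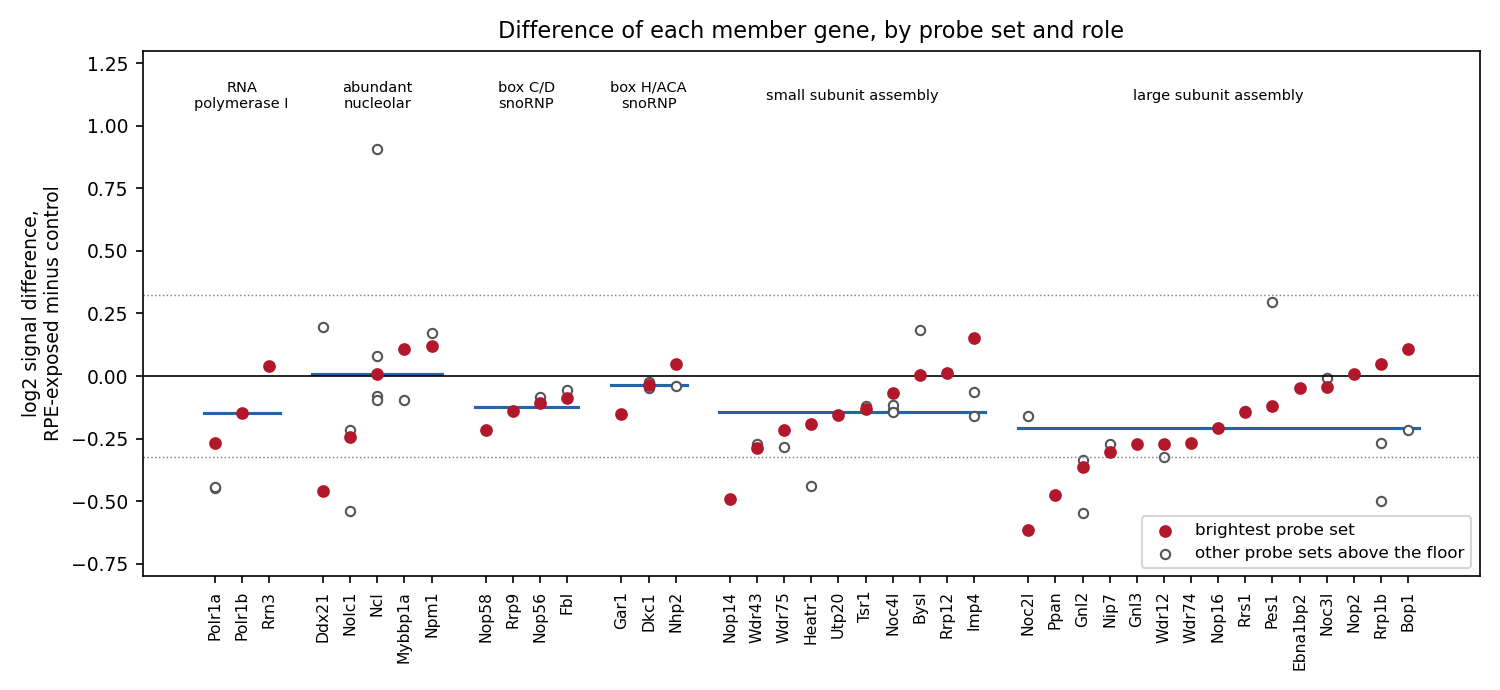
Log2 signal difference, RPE-exposed minus control, of each member gene by role, with filled points for the brightest probe set, open points for its other probe sets where both arrays passed the floor, a blue line at each role's median and dotted lines at 0.32 either side of 0. The medians run from -0.21 for large-subunit assembly to 0.01 for the abundant nucleolar proteins, and the filled points of 5 genes lie below the lower dotted line.

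Separate probe sets of the same gene mostly gave the same direction. Of the 84 member probe sets, 78 passed the floor on each array, and 61 of these (78.2%) were negative, against 51.4% of all 18217 such probe sets. Of the 26 member genes with several of these, 18 had probe sets that agreed in sign, against 50.7% of all genes with several. Some agreement follows from the lean alone, since most member probe sets were negative. Of the 26, 16 had every probe set negative (61.5%), against 25.8% of all genes with several, 2 had every probe set positive (Npm1 and Bysl), and 8 were split. The split genes were Ddx21, Ncl, Mybbp1a, Nhp2, Imp4, Pes1, Bop1 and Rrp1b. Members with 1 usable probe set, such as Nop14 and Ppan, lack this comparison.

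The difference varied with brightness. The 7 members with a mean signal of 1000 or more had a median of 0.01, against 0.04 for all 814 genes that bright, and their differences ran from -0.11 to 0.12. The 20 members from 300 to 1000 had a median of -0.20 with 17 negative, against 0.01 with 48.0% negative over all 2352 genes of that range. The 13 dimmer members had a median of -0.15 with 9 negative, against -0.03 with 54.7% negative over 3474 genes. Across the 40 members Spearman's rho of difference and mean signal was 0.26, a description across genes that share the same pair of arrays. Of all members, Noc2l and Ddx21 alone lay below their like-level ranges, 2 of 40 where 2.46% of all genes compared and 2.55% of the bright ones lay below theirs, and none lay above.

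**Figure D3:**
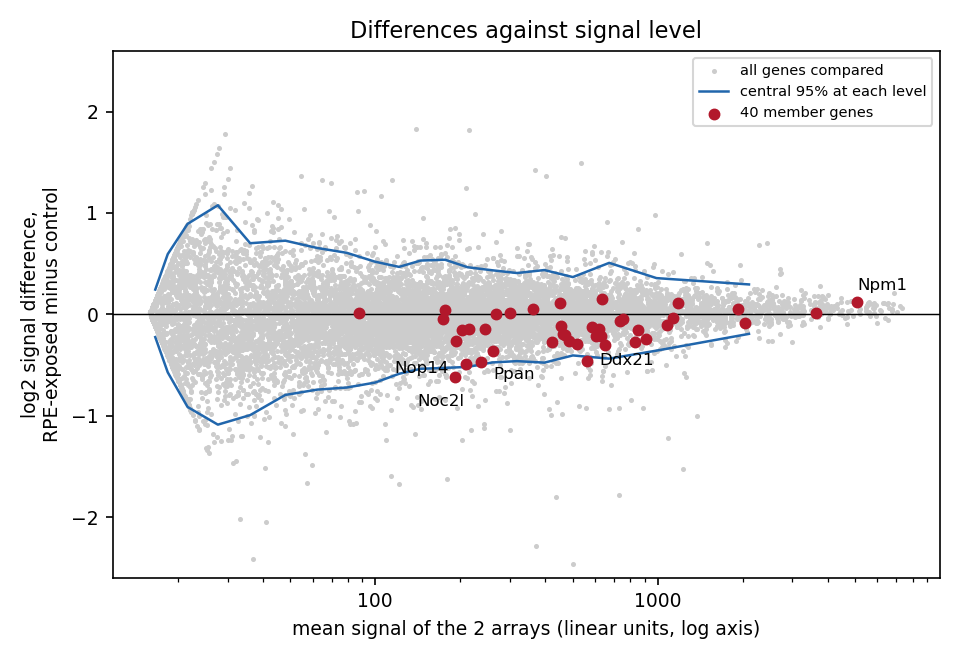
Log2 signal difference, RPE-exposed minus control, against mean signal of the 2 arrays on a log axis, with grey points for the 11021 genes compared, red points for the 40 members and blue lines for the central 95% of genes in each of 20 bins of mean level. Red points lie mostly under 0 between signals of 300 and 1000, and the brightest member, Npm1, lies at 0.12.

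Most other genes of the same pathway also had negative differences, though not in each list under each alternative. Of 119 further biogenesis genes in 5 lists, 83 had negative differences (69.7%), with a median of -0.08. Over all genes compared 51.6% were negative, as were 50% of the genes at least as bright as the dimmest member. By list, 32 of 40 other large-subunit factors were negative (median -0.13). With each gene at the mean of all its probe sets, those under the floor set to it, that median was -0.08. Of the small-subunit factors 26 of 41 were negative (-0.07), as were 10 of 15 genes of the RNA exosome and related trimming enzymes (-0.09). The polymerase I list (-0.07) and the snoRNP assembly list (-0.02) had the medians above 0 given with them under other choices of probe set. By at least 0.32 on the log2 scale, 11 of the 119 were lower (9.24%) and 1 was higher (0.840%). Nol10, a small-subunit processome gene, was the lowest of the 119, at 75 in RPE-exposed and 133.1 in control T cells (-0.83, below its like-level range of -0.67 to 0.52). In the large-subunit list the brightest genes were Nop10, which is itself a box H/ACA protein, at 2600.9 in RPE-exposed and 2727.0 in control T cells (-0.07), and Nop53, at 1380.6 in RPE-exposed and 1587.8 in control T cells (-0.20, just under its like-level range of -0.19 to 0.29).

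The brightest small-subunit processome genes were Emg1, a ribosomal RNA methyltransferase, at 1978.0 in RPE-exposed and 1886.3 in control T cells (0.07), and Nol7, at 1364.9 in RPE-exposed and 1394.2 in control T cells (-0.03). Of the exosome and trimming genes the brightest were Exosc8, at 2144.9 in RPE-exposed and 1956.6 in control T cells (0.13), and C1d, at 847.6 in RPE-exposed and 822.6 in control T cells (0.04).

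Of 79 listed cytosolic ribosomal protein genes, the building blocks that the members assemble, 44 had a 1-gene probe set and 43 were compared. These 43 had a median of 0.04, with 34 positive, but a median of -0.01 after quantile normalization of the arrays. All 814 genes with a signal of 1000 or more also had a median of 0.04, with 36% negative, so the ribosomal protein median equalled that of genes in general at high signal. Rps29 gave 7497.4 in RPE-exposed and 7194.3 in control T cells (0.06), and Rpl13a gave 7430.2 in RPE-exposed and 7040.2 in control T cells (0.08). Their median signal, 5646.0 in RPE-exposed and 5537.5 in control T cells, lay near the highest signal on the arrays, 7804.0 in RPE-exposed and 7196.3 in control T cells. The probe set of Rps27, dim at 119.0 in RPE-exposed and 79.2 in control T cells, was the only one of the 43 genes 1.5-fold higher (0.59). It lay above its like-level range, and 1 other of the 43 lay below its own. Some others of the 43 also rested on probe sets far dimmer than that median signal. The difference between the members' median and that of the ribosomal proteins was not tested.

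**Figure D4:**
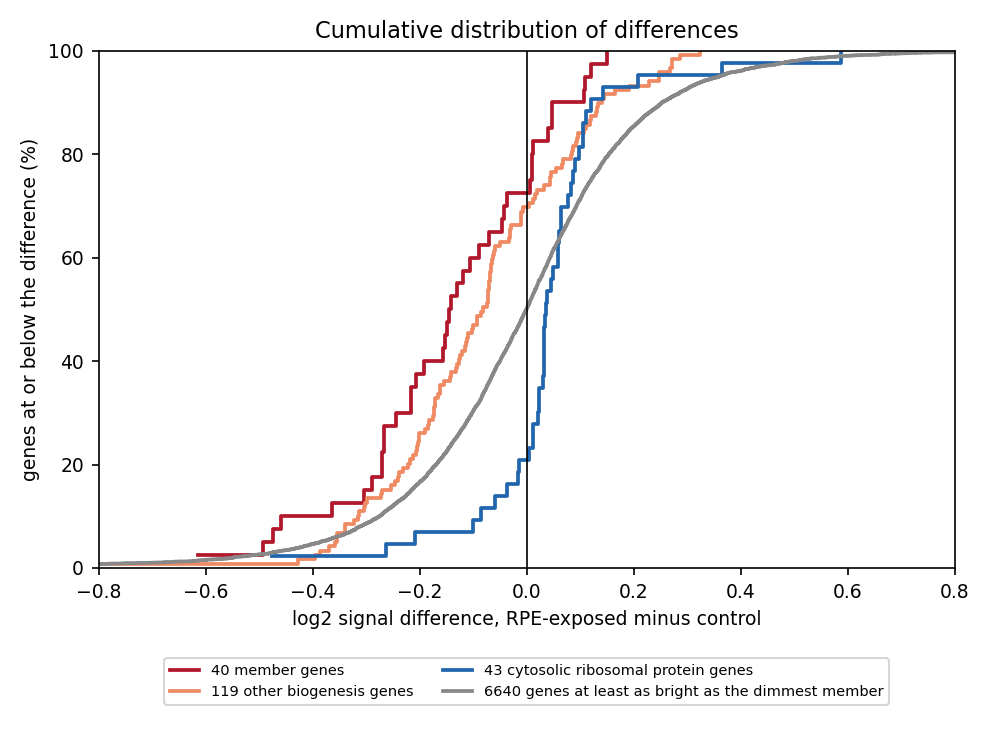
Cumulative percentage of genes at or below each log2 signal difference, RPE-exposed minus control, for the 40 members, 119 other biogenesis genes, 43 cytosolic ribosomal protein genes and the 6640 genes at least as bright as the dimmest member. The share under 0 is 72.5% for members, 69.7% for the other biogenesis genes, 20.9% for ribosomal protein genes (whose median is 0.04, or -0.01 with quantile normalization) and 50% for the genes from the dimmest member up, against 36% for the 814 genes at a signal of 1000 or more, which are not drawn.

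Myc, the known activator of nucleolar genes, was lower, at 754.9 in RPE-exposed and 1111.9 in control T cells, 1.47-fold (-0.56), outside its like-level range of -0.36 to 0.36. Its dimerisation partner Max was at 305.8 in RPE-exposed and 258.3 in control T cells (0.24). Mycn lay above the floor in RPE-exposed cells only, at 24.3 against 5.1 in control T cells, at least 1.53-fold higher with the control value at the floor. That difference (0.61) was also outside its like-level range, -0.57 to 0.59, but rests on a dim probe set. The genes of Max-binding antagonists were mixed, with Mxd4 (0.69) and Mxd3 (0.41) higher, Mxi1 (0.00) level, and Mnt (-0.20), Mga (-0.31) and Mxd1 (-0.31) lower, each inside its like-level range. Mlx gave -0.13 and Mlxip -0.25. Over 24 metabolic and translation genes often counted as Myc targets the median was 0.02, with 10 negative. Of all genes compared 51.6% were negative, and of those with a signal of 1000 or more 36%. The median of the 24 turned to -0.01 after quantile normalization and was 0.09 without the suffixed probe sets. The brightest of the 24, Ldha, gave 5730.5 in RPE-exposed and 5369.1 in control T cells (0.09) beside Eif5a at 5615.0 in RPE-exposed and 5362.1 in control T cells (0.07).

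Genes of growth signalling and of the nucleolar stress response went both ways. Mtor, the growth kinase, gave 170.0 in RPE-exposed and 197.1 in control T cells (-0.21), its partner Rptor gave -0.09, the translation repressor Eif4ebp1 gave -0.37, and the inhibitors Tsc1 and Tsc2 gave -0.02 and 0.13. Maf1, a repressor of RNA polymerase III, gave 0.06. Mdm2, the p53 ubiquitin ligase that free ribosomal proteins bind, gave 292.6 in RPE-exposed and 255.0 in control T cells (0.20), Mdm4 gave -0.05, and the p53 target Cdkn1a gave 402.7 in RPE-exposed and 461.9 in control T cells (-0.20). None of these genes left its like-level range. Cdkn2a and Mycl stayed under the floor in both samples.

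**Figure D5:**
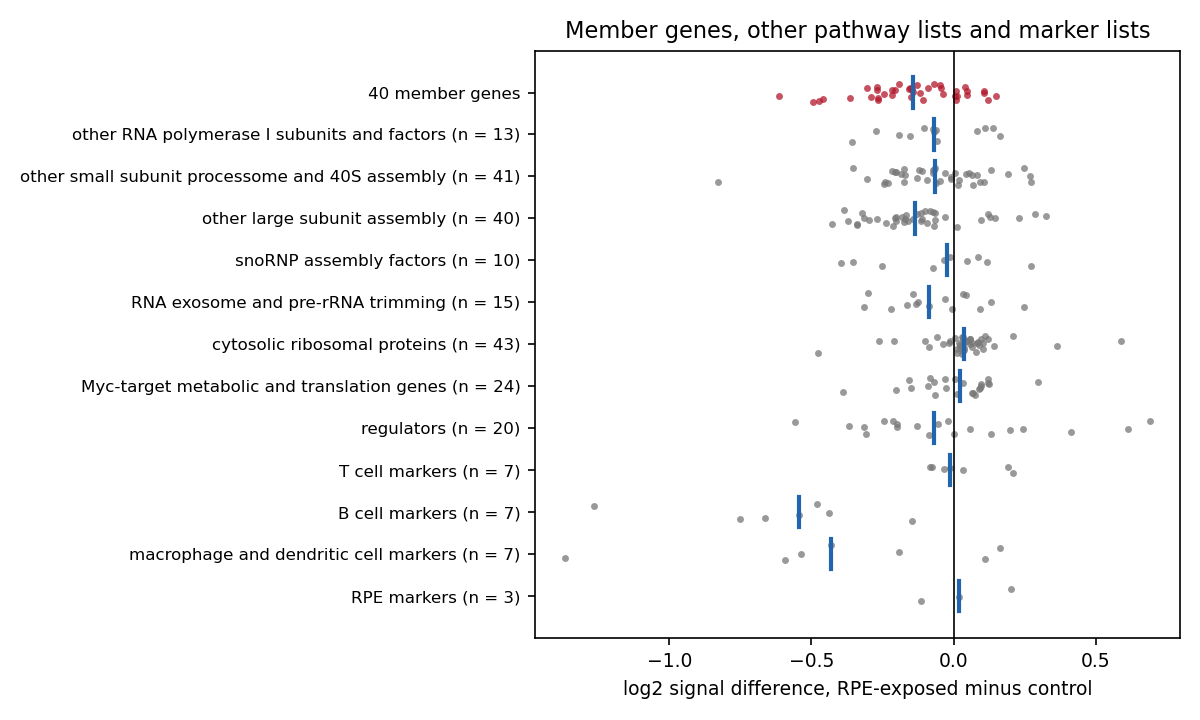
Log2 signal difference, RPE-exposed minus control, of each gene in the 40 members (red) and in 12 other lists (grey), with a blue bar at each median and vertical scatter only for legibility. Member and other biogenesis genes lie mostly left of 0, most ribosomal protein genes lie in a narrow band right of 0 (median 0.04, or -0.01 after quantile normalization), and the B cell markers have the lowest median, -0.54.

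The promoters of the 3 members with the lowest differences, and of the highest, are shown, ranked by the brightest probe set of each gene. Of the 40 members, 34 matched a promoter window in the RefSeq table (assembly GRCm38.p6), which holds 250 bases before and 50 after the gene's start. No window was found for Npm1, Fbl, Rrp12, Bop1, Rrs1 and Gnl2. Each sequence below runs from 150 bases before to 30 after the start, and capitals mark any match to 3 motifs searched on both strands: CACGTG, the E-box that Myc and Max bind, CCGGAAG, the core of ETS-family sites, and TCTCGCGA, an element of housekeeping promoters. For Noc2l the first of 2 listed windows is given.
Noc2l, chr4:156235865-156236044, plus strand: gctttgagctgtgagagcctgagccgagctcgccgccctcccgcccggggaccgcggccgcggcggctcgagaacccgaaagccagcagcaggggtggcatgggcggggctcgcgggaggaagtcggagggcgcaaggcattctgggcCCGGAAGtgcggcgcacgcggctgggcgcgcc
Nop14, chr5:34660119-34660298, minus strand: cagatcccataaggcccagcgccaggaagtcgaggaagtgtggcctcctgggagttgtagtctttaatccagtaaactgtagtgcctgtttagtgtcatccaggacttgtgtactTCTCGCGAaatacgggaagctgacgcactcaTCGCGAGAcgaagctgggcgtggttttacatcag
Ppan, chr9:20888025-20888204, plus strand: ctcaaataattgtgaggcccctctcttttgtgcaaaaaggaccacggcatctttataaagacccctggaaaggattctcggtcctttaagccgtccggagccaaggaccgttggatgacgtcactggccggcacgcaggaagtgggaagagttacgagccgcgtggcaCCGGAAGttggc
Imp4, chr1:34439679-34439858, plus strand: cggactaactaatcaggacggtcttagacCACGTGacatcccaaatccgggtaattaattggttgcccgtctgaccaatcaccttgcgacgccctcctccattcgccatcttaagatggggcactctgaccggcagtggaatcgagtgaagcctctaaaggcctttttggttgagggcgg
The windows of Noc2l and Ppan held CCGGAAG, 2 bases before and 19 after the start. The window of Nop14 held TCTCGCGA 35 bases before the start and its reverse complement 4 bases before it. The printed window of Imp4 held CACGTG 121 bases before the start.

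Over whole windows, CACGTG was found in 8 of 34 members (23.5%), against 11.9% of 8977 genes compared and 8.09% of all 27025 genes in the table. CCGGAAG was found in 13 members (38.2%), against 21.1% of genes compared and 9.93% of all, and TCTCGCGA in 3 members (8.82%), against 2.50% and 1.13%. The median GC content of the windows was 58.0% for members and 62.0% for genes compared. The 8 members with CACGTG were Imp4, Mybbp1a, Nop2, Pes1, Rrn3, Tsr1, Utp20 and Wdr43. They had a median difference of -0.05 with 4 negative, and the 26 without it had -0.20 with 22 negative. Over all genes compared the split ran the other way, at -0.03 with the motif and -0.01 without it. For CCGGAAG the medians of the 13 members with it and the 21 without it were -0.15 each, and for TCTCGCGA they were -0.22 over 3 with it and -0.15 over 31 without it. A match of letters does not show that a factor binds there, and these counts were not tested.

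Markers of other cell types are given beside these values, where 51.6% of all genes compared had negative differences. T cell markers went both ways, with a median of -0.01 over 7 genes, 4 of them negative and 3 positive. Their summed signal was 11160.3 in RPE-exposed and 10649.2 in control T cells. Cd3e gave 763.9 in RPE-exposed and 770.9 in control T cells (-0.01), while Cd3d (0.19) and Cd3g (0.21) were higher. The lowest of the 7 differences was -0.08. All 7 B cell markers measured were lower, with a median of -0.54 and a summed signal of 1048.7 in RPE-exposed and 1527.4 in control T cells. Of 9 macrophage and dendritic cell markers, 7 were above the floor on at least 1 array, 5 of them with negative differences, with a summed signal of 166.3 in RPE-exposed and 214.4 in control T cells. Of 12 RPE markers none passed the floor on both arrays and 3 passed it on 1, with a summed signal of 94.5 in RPE-exposed and 102.7 in control T cells, and the defining genes Rpe65 and Rlbp1 had 2.3 and 7.5 in RPE-exposed against 5.3 and 7.0 in control T cells, all under the floor. Ribosome biogenesis genes are expressed in every one of these cell types, and whether fewer B cell or macrophage transcripts had a part in their lower signals was not tested.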

How the data were processed

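Per the labels' protocols, total RNA (5 micrograms) was reverse transcribed, transcribed in vitro with biotin and hybridised to Affymetrix arrays. The authors deposited 1 linear intensity per probe set and array, without log transformation. For the software that summarized the probes and for detection calls, the entry is: not given in the sources used here. Both columns were already on a common scale (medians of 16.0 in RPE-exposed and 15.9 in control T cells over probe sets other than the 64 manufacturer's controls), so they were used as deposited. Of 45101 probe sets, 34945 named 1 gene in the platform annotation, 932 named several and 9160 had none listed. All 40 member symbols matched the RefSeq table by gene ID.

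From the deposited intensities, log2 differences were computed in Python (3.11.15) using pandas 2.3.3 with numpy 2.4.6, and drawn using matplotlib 3.10.9. Signals under an array's median were set to it. A gene was compared if 1 array or more passed the floor (11021 genes, 9993 of them on both). The like-level range is the central 95% of differences among genes in 1 of 20 equal bins of mean level. The code was run on simulated data with known shifts, and the log2 differences returned those shifts. The share of genes inside the like-level range and the centred median are fixed by their definitions, so they were no check. The simulated noise was smaller than the spread over probe sets of a gene, so the run does not describe the precision of these arrays. No sample spread exists, so no test was run.

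The members and lists were chosen by function, with earlier results of these data known. All members are named. From each other pathway list the genes named are up to 4 that were at least 1.5-fold different and outside their like-level range, with the 2 brightest added where fewer than 2 qualified. All regulators above the floor are named. Marker lists are given by counts, sums and medians. Cd3e, Cd3d, Cd3g, Rpe65 and Rlbp1 were named from them as defining genes, outside that rule and after their values were seen. Genes not measured by a 1-gene probe set are not analysed here. Alternatives changed the scaling, the floor, the probe set and an added offset.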

Additional observations from a re-analysis of the deposited data

How the results depend on the processing

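All limits start from 1 array a group, and dim probe sets are the least precise. The members' median difference of -0.14 ran from -0.15 to -0.13 over 8 alternatives, and the count of negative members from 28 of 36 to 30 of 40. The count lower by at least 0.32 (log2) was 5 in every alternative run, while its background ran from 6.98% to 22.9% of genes compared. The 5 genes were not always the same, since the mean over all probe sets put Nolc1 (-0.33) in place of Ddx21 (-0.13). The 1 gene at least 1.5-fold lower, Noc2l, was not so with the mean over all probe sets or with an offset of 16 (0 genes each). Of the 29 negative members 27 were negative in every alternative run, and 5 of 11 positive ones were positive in every one. Pes1 (0.09) and Ebna1bp2 (0.13) turned positive with the mean over all probe sets, where signals under the floor are set to it. For Ebna1bp2 this rested on a probe set at 21.4 in RPE-exposed and 10.5 in control T cells, under the control array's floor. For Pes1 it rested on a probe set near the floor, at 22.2 in RPE-exposed and 18.1 in control T cells. Of 315 single-gene values, 5 moved by more than the probe set SD of 0.20. Leaving out probe sets with the suffix x, s or a removed 4 members, and the 75th-percentile floor removed 1. A change of floor could not alter the value of a member that stayed, because its signal lay above each floor. Centring on the median shifted all members by the same small amount. The unchanged counts under those alternatives therefore do not measure how stable the member values are.

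With the mean over all probe sets, the other RNA polymerase I list had a median of 0.0057, the regulators 0.0035 and the other large-subunit list -0.0847. That mean counts a probe set under the floor on both arrays as nearly no difference, since its signals are set to the floor. Polr1a, for example, had -0.23 in that setting, against -0.39 over its 3 probe sets above the floor. Quantile normalization put the ribosomal protein median at -0.0079. Without the suffixed probe sets the Myc-target list had 0.0853, and under the 75th-percentile floor the regulators had -0.1295. The macrophage and dendritic cell markers, near the floor, moved from -0.4306 to -0.1905 with the 25th-percentile floor or no floor. With an offset of 16 they had -0.2320. The RPE markers had -0.1867 with the 25th-percentile floor. The causes were not tested. No paired analysis was possible because each group has 1 array.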
